A study of Mus musculus with 4 samples.

Results

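Readers of methylated DNA are proteins that recognise methylated CpG sites, and 8 of the genes that encode such proteins or their close relatives were followed here: Mbd1, Mbd2, Mbd3, Mbd4, Mbd5, Mbd6, Zbtb4 and Zbtb38. They were chosen by name, and their proposal followed an earlier look at these data in which a stretch of Mbd2 stood out. For each gene, the CpGs between its annotated ends, with 5 kb added on each side, were taken. The 8 spans held 4480 CpGs listed in at least 1 library, of 15954515 autosomal CpGs, and the 8 genes were compared with 33073 autosomal protein-coding and lncRNA genes. Methylation had been measured by whole-genome bisulfite sequencing, which reads an unmethylated cytosine as T and a methylated one as C. The DNA came from hippocampal microglia, macrophages that live in the brain, at postpartum week 3. All 4 libraries came from mice of the genotype Tmem119-tdTomato+/-, which is a fluorescent reporter allele of a gene that marks microglia, so the controls carried it too. There were 2 control libraries and 2 libraries from FGR mice, where FGR is taken to stand for fetal growth restriction. The labels used here do not give sex, strain, the way growth was restricted or how the microglia were isolated. They also do not say whether replicates were separate animals or pools, so every p-value measures only the spread between these libraries.

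The methyl-CpG-binding domain (MBD) defines the first 6 of these proteins, but its members differ in function. MBD1 and MBD2 bind methylated CpGs and recruit repressors. MBD3 binds them weakly if at all and, like MBD2, is a subunit of a form of the NuRD chromatin-remodelling complex. MBD4 is a DNA glycosylase that removes the thymine left when methylated cytosine is deaminated. MBD5 and MBD6 bind the PR-DUB complex, which removes ubiquitin from histone H2A, and ZBTB4 and ZBTB38 recognise methylated DNA with zinc fingers, as their relative Kaiso does. These data show the methylation of the genes themselves, not the amount of the proteins or where they bind.

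The starts of these genes were of different kinds, as 4 stretches of 250 bases directly before annotated starts show. They come from RefSeq (GRCm38.p6, the assembly of mm10), which gives starts for 6 of the 8 members and none here for Mbd1 and Mbd2. Each is written 5′ to 3′ on the strand of the gene, with every CpG in capitals. The start of Mbd3 is CpG-rich and was read as unmethylated, the internal start of Mbd5, with fewer CpGs than the median start, and the outer start of Zbtb38, with the median number, had methylated reads in every library, and the middle one of the 3 starts of Zbtb38 is very CpG-rich and held no listed CpG.
Mbd3, chr10:80399532-80399781, minus strand: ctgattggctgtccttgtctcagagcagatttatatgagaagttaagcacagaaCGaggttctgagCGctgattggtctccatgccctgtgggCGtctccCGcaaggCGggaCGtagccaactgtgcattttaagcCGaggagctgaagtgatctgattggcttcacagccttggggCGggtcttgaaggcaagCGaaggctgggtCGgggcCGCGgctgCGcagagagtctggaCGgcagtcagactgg
Mbd5 internal start, chr2:49245650-49245899, plus strand: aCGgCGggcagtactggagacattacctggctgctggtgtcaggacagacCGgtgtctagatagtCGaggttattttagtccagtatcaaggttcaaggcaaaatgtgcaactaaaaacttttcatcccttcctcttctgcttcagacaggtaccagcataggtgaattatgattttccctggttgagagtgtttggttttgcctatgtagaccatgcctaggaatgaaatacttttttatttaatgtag
Zbtb38 outer start, chr9:96731676-96731925, minus strand: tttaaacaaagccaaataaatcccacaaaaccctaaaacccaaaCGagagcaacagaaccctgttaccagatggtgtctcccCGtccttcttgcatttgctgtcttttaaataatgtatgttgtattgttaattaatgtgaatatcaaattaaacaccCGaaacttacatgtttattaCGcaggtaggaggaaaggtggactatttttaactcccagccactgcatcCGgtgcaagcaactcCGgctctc
Zbtb38 middle start, chr9:96719851-96720100, minus strand: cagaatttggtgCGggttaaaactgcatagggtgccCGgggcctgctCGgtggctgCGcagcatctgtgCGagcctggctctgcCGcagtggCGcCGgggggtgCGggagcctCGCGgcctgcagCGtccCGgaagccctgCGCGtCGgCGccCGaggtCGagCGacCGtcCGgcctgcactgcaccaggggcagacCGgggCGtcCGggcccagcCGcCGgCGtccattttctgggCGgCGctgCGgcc
The Mbd3 stretch holds 14 CpGs, more than 70.1% of the 31396 autosomal start sequences of this length, which had a median of 6. Control 2 was the only library to list any of them, and 0 of its 50 reads over 9 CpGs were methylated, which allows a level of up to 6%. Limits of this kind, and the intervals below, take all counted reads as independent. A read over several CpGs counts at each of them, so both are too tight where CpGs lie close. The internal Mbd5 stretch holds 4 CpGs, and levels there were 81.0%, 100%, 85.7% and 87.1% in control 1, control 2, FGR 1 and FGR 2, over 5 to 31 reads. The outer Zbtb38 stretch holds 6 CpGs, with 52.2% and 63.6% in the controls and 56.5% and 67.5% in FGR, over 11 to 40 reads. The groups overlapped in both. The Zbtb38 stretch before the middle start holds 31 CpGs, more than 94.6% of all start sequences, none of which any library listed. The stretches before the first start of Mbd5, both starts of Mbd6 and the start of Zbtb4 hold 13 to 32 CpGs and likewise had none listed. A CpG-rich start was not always unread: all 22 CpGs before the start of Mbd4 were listed by some library, at 0% of 45 reads in control 2, 0% of 53 in FGR 1 and 0.645% of 155 in FGR 2.

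The libraries differed in depth, and none listed every CpG of the spans. The deposited tables list a cytosine only with at least 5 reads, and their summed coverage was between 49563150 reads in FGR 1 and 91762720 in FGR 2, with both controls in between. Autosomal levels were 76.0% and 76.4% in the controls and 74.6% and 75.6% in FGR, so both FGR libraries lay below both controls over the whole genome. A CpG listed in a member span had on average 5.85 to 8.64 reads in a library, so single CpGs are imprecise, and intervals cover counting error only. Of the CpGs of the spans, between 30.3% in Mbd3 and 67.9% in Mbd5 were listed in both groups, and between 0.541% in Mbd3 and 16.9% in Mbd5 in all 4 libraries. As a check of the cell label, the level was taken over 10 microglial marker genes with 2 kb on each side. Its median was 42.8%, with a range of 19.7% to 69.7%, against medians of 67.1% to 78.2% for markers of neurons, astrocytes, the oligodendrocyte lineage, endothelial cells and lymphocytes. The ranges overlapped: single markers of the other cell types ran from 20.4% (Olig1) to 82.2%, and Cldn5 at 36.7% and Slc17a7 at 40.1% also lay under the microglial median. A window of 500 bp under 20% was found in 10 of 10 microglial markers, but also in 6 of 6 neuronal and 4 of 4 astrocyte ones, so such windows did not set the cell types apart. Methylation of markers is no measure of purity, and the part of other cells in the results below was not tested.

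The 8 genes were methylated along most of their length, with short low-methylated stretches, the longer of which lay at 1 end. In windows of 500 bp with at least 3 listed CpGs, 538 of the 679 measured windows (79.2%) had a level over 80% in the pooled libraries, against 52.5% of such windows over all autosomes. Mbd5 alone held 293 of the 679 windows and 261 of the 538. By member, the share ran from 54.1% in Zbtb4, 57.1% in Mbd6 and 60% in Mbd4 to 89.1% in Mbd5. A level under 20%, called low here, was found in 35 windows (5.15%), against 3.14% over all autosomes. These windows formed 21 stretches, most of them single windows inside the genes or in their flanks. The 6 stretches longer than 1 window held 20 of the 35 low windows, and each lay over an annotated end of Mbd1, Mbd2, Mbd3, Mbd4, Mbd5 or Mbd6. Zbtb4 and Zbtb38 had single low windows only, of which 1 touched the start of Zbtb4 and 1 the innermost start of Zbtb38.

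**Figure D1:**
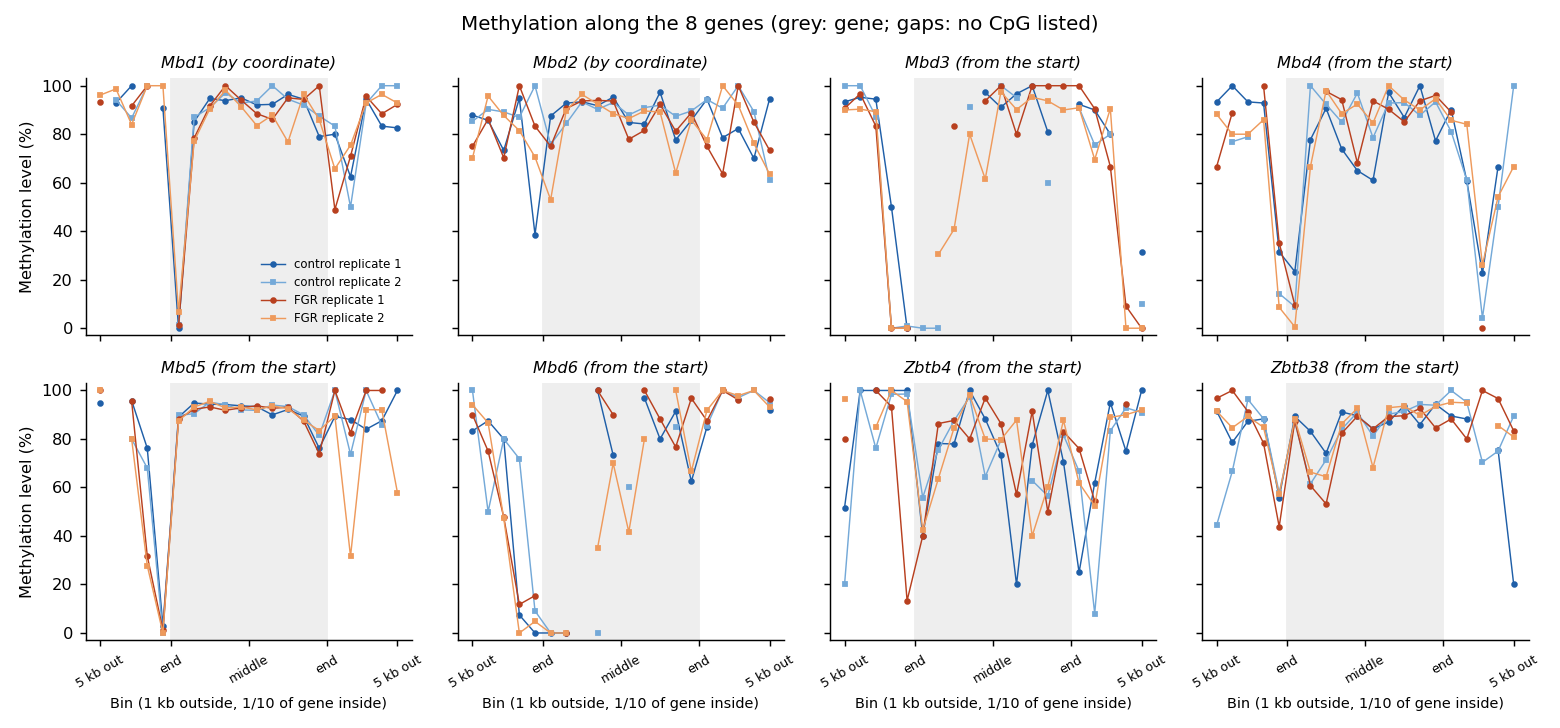
Methylation level (percent of reads, vertical axis) in 1 kb bins of the flanks and in 10 equal bins of each gene (grey, horizontal axis), 1 line per library; Mbd3, Mbd4, Mbd5, Mbd6, Zbtb4 and Zbtb38 run from their start, Mbd1 and Mbd2 by coordinate. Mbd1, Mbd3, Mbd5 and Mbd6 drop under 20% at 1 end in both groups, the first bin inside Mbd4 lies at 23.3% or less in all 4 libraries, and the lines of the groups lie among each other along most of the genes.

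Across the whole spans, no member was called as different between FGR and control. With 2 libraries against 2, this does not show that the levels were equal. A quasi-binomial model of methylated and unmethylated reads, moderated with limma, was fitted to all genes, and a region was called when its adjusted p was under 0.05 and its 2 group means were 10 or more percentage points apart. It called 0 of 8 members and 0 of 32613 genes (0%), although 2085 genes had an unadjusted p under 0.05. limma on log ratios and edgeR on the reads also called 0, with 1990 and 2073 genes at an unadjusted p under 0.05. The number of genes called depended on the order of 2 steps of the fit: when the overdispersion was raised to 1 before its moderation, an alternative chosen after seeing the data, 301 of the 32613 genes (0.923%) were called, 67 of them higher and 234 lower in FGR, and still 0 of 8 members. Adjusted p lay between 0.821 and 0.987 in the members other than Mbd2, whose values are a description because Mbd2 was known from the same contrast. The level was lower in FGR in 6 of 8 members, and lower in 63.1% of all genes. Both FGR libraries lay on the same side of both controls in 5 of 8 members, and in 36.1% of all genes. The median difference, FGR minus control, was -2.59 points over the members and -1.11 points over all genes, in the direction of the autosomal levels. An exact permutation test of a single value with 2 libraries against 2 has 6 assignments, so its smallest two-sided p is 2 of 6.

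The direction of these small differences depended on which CpGs were compared. At CpGs listed in at least 1 library of each group, 5 of 8 members were lower in FGR (58.8% of all genes) and 2 had groups that did not overlap (23.0% of all genes). Again 0 of 8 members and 0 of 32556 genes (0%) were called, and 226 genes (0.694%) had an unadjusted p under 0.05. That is far fewer than such a threshold passes without any difference. The fit was therefore conservative here, and its lack of calls says little. This set of CpGs still lets libraries of a group list different CpGs. At the CpGs shared by all 4 libraries, where each is read at the same sites, 6 members could be tested and 2 of them were lower in FGR (53.6% of all genes). There 3 of 6 had groups that did not overlap (33.4% of all genes), 0 of 6 members and 0 of 30000 genes (0%) were called, 1554 genes had an unadjusted p under 0.05, and the median difference of the members was 0.19 points, against -0.30 over all genes. Mbd3 and Mbd6 each had 1 such CpG and were not tested. limma called no member in either set. At the CpGs listed in both groups it was conservative too, with 371 genes at an unadjusted p under 0.05.

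**Figure D2:**
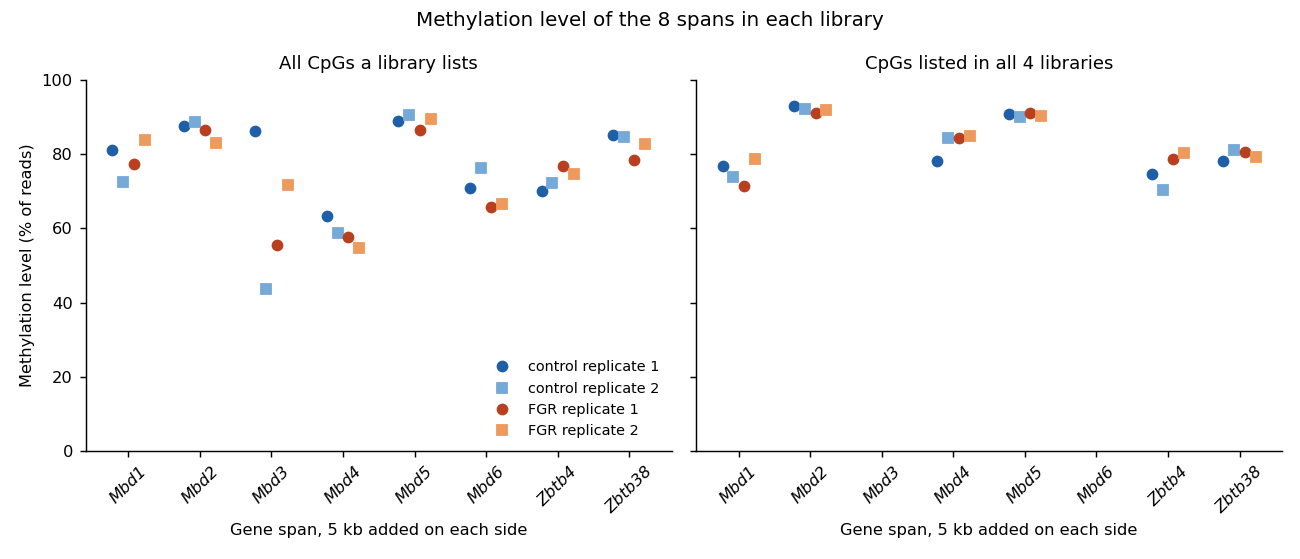
Methylation level of each span (percent of reads, vertical axis) in the 4 libraries, over every CpG a library lists (left) and over the CpGs that all 4 libraries list (right, without Mbd3 and Mbd6, which have 1 such CpG each); each point is 1 library and no error bars are drawn. Mbd3 runs from 43.6% to 86.3% on the left with the controls at both extremes, and the other members differ by less.

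Mbd1, which recruits the histone H3 lysine 9 methyltransferase SETDB1, lies on chr18:74267605-74282737 (Entrez Gene 17190). It was unmethylated in the 1500 bp at its low-coordinate end, with 0%, 1.44%, 1.16% and 6.67% in control 1, control 2, FGR 1 and FGR 2, over 75 to 209 reads. The annotation used here gives no strand for it, so no promoter is named. The span as a whole stood at 81.2% and 72.4% in the controls and at 77.3% and 83.7% in FGR. The groups overlapped, with a difference of 3.73 points (adjusted p = 0.911, quasi-binomial fit). At the 14 CpGs that every library listed the difference was -0.16 points, and at those of them between the ends of the gene it was -12.3 points (adjusted p = 0.982). The largest difference among its tested tiles of 1 kb with at least 5 CpGs in every library was in the flank, within Cfap53, at chr18:74284001-74285000. That tile had 68.2% and 59.3% in the controls and 76.2% and 79.1% in FGR, so the groups did not overlap (adjusted p = 0.985). The largest difference at CpGs listed in both groups went the other way, inside the gene, at chr18:74269001-74270000. This second tile had 86.4% and 87.0% in the controls and 72.2% and 45.5% in FGR, over 11 to 77 reads. Pooled over its 4 shared CpGs, the level was 96.7% for control and 62.1% for FGR, and it was not tested.

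Mbd2, which carries the methyl-CpG binding of one form of NuRD, lies on chr18:70568225-70629134 (Entrez Gene 17191) and overlaps the lncRNA gene Gm31671 at its low end. It was among the more methylated genes: 92.5% of all genes had a lower level over their spans. Span levels were 87.6% and 88.6% in the controls and 86.4% and 82.9% in FGR, a difference of -3.42 points with groups that did not overlap. At the 71 CpGs that every library listed, levels were 93.0%, 92.2%, 91.1% and 91.8%, and the difference shrank to -1.12 points. The groups did not overlap there either. FGR 2 differed from the other libraries in what it listed: 6.19% of its CpGs in the span lay in low windows, against 1.57% to 2.65% in the other libraries. Outside low windows the levels were 89.5% and 89.4% in the controls and 88.1% and 87.9% in FGR, a difference of -1.46 points.

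The stretch of Mbd2 that had stood out earlier is the 1 kb tile chr18:70569001-70570000, which begins 776 bp inside the low end of the gene. Its level was 66.7% of 21 reads in control 1, 52.9% of 51 reads in control 2, 0% of 20 reads in FGR 1 and 9.01% of 111 reads in FGR 2. Wilson 95% intervals were 45.4% to 82.8%, 39.5% to 65.9%, 0% to 16.1% and 4.97% to 15.8%. Both FGR libraries were low and both controls high, with group means of 59.8% ± 9.71 and 4.50% ± 6.37 (SD, n = 2) and a difference of -55.3 points, which is a description since the tile was chosen from this contrast. The groups were not read at the same CpGs. The 6 CpGs nearest the end of the gene, 820 to 1069 bp inside it, were listed only in FGR, at 0% to 5.26%. The next 4, at 1097 to 1347 bp, were listed only in control 2 and FGR 2, and the last 4, at 1499 to 1753 bp, only in the controls, at 25% to 100%. No CpG of the tile was listed in all 4 libraries. At the 4 CpGs with a value in both groups, control 2 had 33.3%, 0%, 40% and 60%, and FGR 2 had 20%, 6.25%, 16.7% and 80%, from 5 to 16 reads each. FGR 2 was lower at 2 of these 4 CpGs and higher at the other 2, and the levels pooled over them were 33.3% of 21 reads and 21.4% of 42 reads. Within FGR 2 alone, the level went from 0% at 820 bp to 80% at 1347 bp. A difference between the groups and a difference between the CpGs listed cannot be told apart in this tile.

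**Figure D3:**
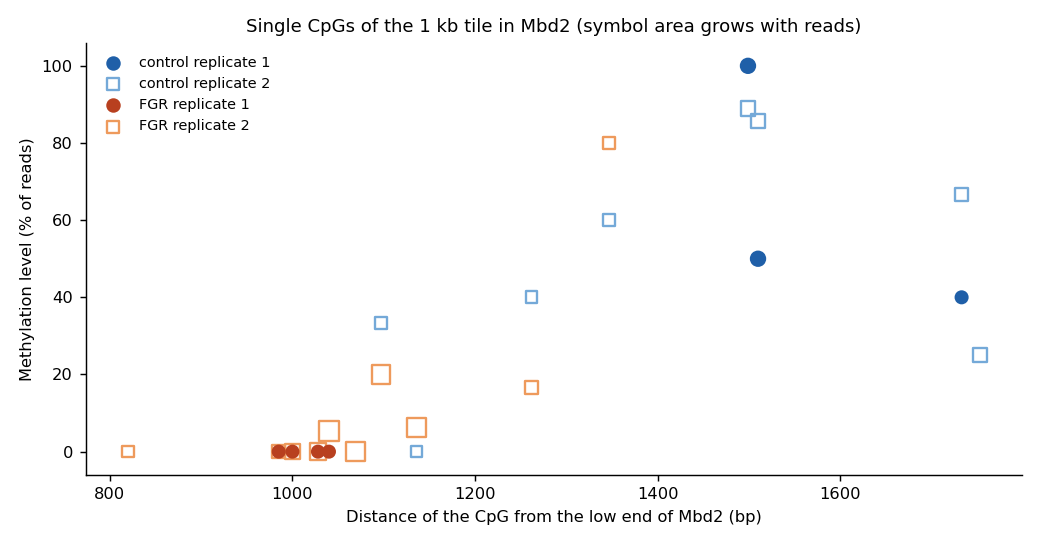
Methylation level (percent of reads, vertical axis) of each listed CpG of the 1 kb tile in Mbd2 against its distance from the low-coordinate end of the gene (bp, horizontal axis); filled symbols are replicate 1, open ones replicate 2, and the area of a symbol grows with its reads. FGR symbols lie between 820 and 1347 bp and control symbols between 1097 and 1753 bp, and both groups have values only at the 4 CpGs from 1097 to 1347 bp.

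Mbd3, the NuRD subunit with little affinity for methylated CpGs, lies on chr10:80392539-80399531 (Entrez Gene 17192) and is read from its high end. It had the widest spread between libraries of the 8: 86.3% and 43.6% in the controls and 55.6% and 71.7% in FGR. The controls enclosed both FGR libraries, and the difference was -1.32 points (adjusted p = 0.987). Leaving out 1 library at a time moved it from -22.7 points (without control 2) to 20.02 points (without control 1). A low stretch of 2000 bp covered the start, with 0%, 0.613%, 0% and 0% of 5, 163, 101 and 74 reads. Control 1 listed a single CpG there, control 2 listed 29, FGR 1 listed 16 and FGR 2 listed 14. Of the CpGs a library listed in the span, 7.02% lay in low windows in control 1, 47.9% in control 2, 29.5% in FGR 1 and 16.7% in FGR 2, the reverse of the order of the levels. Over the CpGs outside low windows, the libraries stood at 90.1%, 80.3%, 79.8% and 83.7%, a range of 10.3 points in place of 42.7. The low windows were chosen from the pooled levels of the same libraries, so this is a description.

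**Figure D4:**
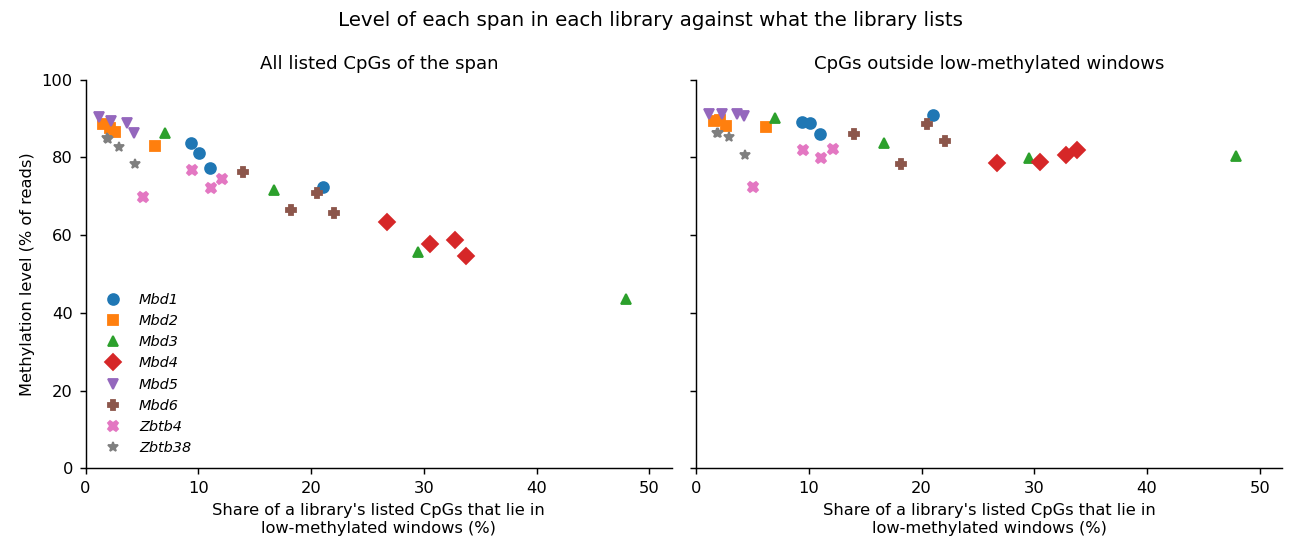
Methylation level of each span in each library (percent of reads, vertical axes) against the share of the CpGs listed by that library that lie in low-methylated windows (percent, horizontal axes), over all listed CpGs (left) and over those outside low windows (right); each point is 1 member in 1 library. On the left the 4 points of Mbd3 fall from 86.3% to 43.6% as the share goes from 7.02% to 47.9%, and on the right they lie between 79.8% and 90.1%.

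Mbd4, the thymine glycosylase, lies on chr6:115840697-115853400 (Entrez Gene 17193), and its high end overlaps Ift122. It had the lowest rank of the 8, with 9.69% of all genes at a lower level. Within 500 bp of its start the levels were 4.05% and 2% in the controls and 0% and 0.49% in FGR, over 73 to 204 reads. Over the span, the controls had 63.4% and 58.9% and the FGR libraries 57.7% and 54.6%. The groups did not overlap, and the difference of -4.97 points did not pass (adjusted p = 0.883). Its size was not stable: it was -16.3 points with only CpGs of at least 10 reads (adjusted p = 0.652), -1.31 points with equal weight for every CpG, and -2.69 points without control 1. At CpGs listed in both groups the span difference was -6.13 points when reads were summed. With the reads of each group pooled per CpG, the mean of the differences of those 136 CpGs was 1.06 points, with 33 CpGs lower, 43 higher and 60 equal. At the 20 CpGs that every library listed the levels were 78.0% and 84.3% in the controls and 84.3% and 84.8% in FGR, a difference of 3.40 points the other way. The tile of its span with the largest tested difference lay outside the gene, at chr6:115838001-115839000 and over the start of Efcab12. It had 23.5% and 28.9% in the controls and 0% and 23.3% in FGR (adjusted p = 0.985), and FGR 1 alone was far from the others there, with 0 of 67 reads methylated, which allows up to 4.48%.

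Mbd5, a PR-DUB partner that is disrupted in a human neurodevelopmental disorder, lies on chr2:48949499-49319688 (Entrez Gene 109241) and is by far the longest of the 8, at 370190 bp. Its body was nearly fully methylated: 97.6% of genes had a lower level. Span levels were 88.8% and 90.4% in the controls and 86.4% and 89.3% in FGR, so the groups overlapped (difference -1.77 points, adjusted p = 0.901). The difference was -0.28 points without FGR 1 and -3.25 points without FGR 2. At the 303 CpGs that every library listed the levels were 90.7%, 90.1%, 91.0% and 90.2%, and the difference was 0.21 points. Mbd5 held the most shared CpGs of the 8, and the groups overlapped there. The 1500 bp that end 8 bp before its first start, where the start of Orc4 also lies, had 3.70%, 12.5%, 4.08% and 6.85%. Further low windows lay far inside the gene. At chr2:49313001-49313500, 6188 bp from its end, the level was 13.5% and 30% in the controls and 11.7% and 4.92% in FGR, over 60 to 94 reads, with groups that did not overlap and a difference of -13.4 points that was not tested by itself. The last of 10 equal bins of the gene, which holds this window, had 79.7% in the pooled libraries, against 88.6% to 94.7% in the other bins. The largest difference at CpGs listed in both groups went the other way, at chr2:48988001-48989000, with 78.3% and 47.7% in the controls and 85.1% and 90.9% in FGR. Pooled over its 5 shared CpGs, the level of that tile was 58.2% for control and 87.0% for FGR, and it held too few CpGs in FGR 2 to be tested.

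Mbd6, the other PR-DUB partner, lies on chr10:127281956-127290869 (Entrez Gene 110962), overlapping Dctn2 at one end and Ddit3 at the other. The 2000 bp that begin 483 bp before its outer listed start, and that also hold the start of Ddit3, a stress-response transcription factor gene, were unmethylated: 0%, 0%, 1.25% and 0% of 22 to 80 reads. Over the span, levels were 70.9% and 76.3% in the controls and 65.7% and 66.6% in FGR. This was the largest span difference of the 8, at -7.48 points, with group means of 73.6% ± 3.83 and 66.1% ± 0.64 (SD, n = 2) that did not overlap. It did not pass (adjusted p = 0.866), and 14.3% of all genes had a larger one. The flank beyond the starts, which lies in Ddit3, had 59.7% and 70.3% in the controls and 42.7% and 47.7% in FGR. The groups did not overlap in that flank, which was not tested by itself, and between the ends of the gene the difference was -0.91 points over all listed CpGs. In the span 63 CpGs were listed in both groups. There the groups overlapped over the span, with a difference of -5.06 points, and the difference between the ends of the gene was -13.7 points, so which part of the span differed more depended on the CpGs compared.

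Zbtb4, a zinc finger repressor, lies on chr11:69765912-69784026 (Entrez Gene 75580). It was, with Mbd1, 1 of 2 members with a higher span level in FGR: 69.9% and 72.2% in the controls and 76.7% and 74.5% in FGR. The groups did not overlap, and the difference was 4.53 points (adjusted p = 0.900). It kept its sign at the CpGs listed in both groups, 3.27 points with groups that overlapped, and at the 11 CpGs listed in all 4 libraries, where levels were 74.7% and 70.4% in the controls and 78.7% and 80.2% in FGR (adjusted p = 0.958). With only CpGs of at least 10 reads in the library, the span difference was -1.68 points. Its start was listed by FGR 1 alone within 500 bp on each side, at 13.3% of 15 reads, so no group comparison was possible at the start itself. From 1500 bp before to 500 bp after the start, levels were 100%, 98.3%, 44% and 96.9%, and FGR 1, the library that listed the start, stood apart from the other 3.

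Zbtb38, which binds methylated DNA through zinc fingers and lies in a locus associated with human height, spans chr9:96682767-96731675 (Entrez Gene 245007). Levels over its span were 85.1% and 84.6% in the controls and 78.3% and 82.7% in FGR. The groups did not overlap and the difference was -4.41 points (adjusted p = 0.821). It was -2.22 points without FGR 1 and -6.60 points without FGR 2. At the 60 CpGs that every library listed the levels were 78.3%, 81.2%, 80.4% and 79.3%, the groups overlapped, and the difference was 0.17 points. Of its 3 listed starts, the outer one had 69.4% and 81.5% in the controls and 54.9% and 73.9% in FGR, from 1500 bp before to 500 bp after it. The middle one, whose sequence is given above, was read within 500 bp only in FGR, at 0% of 32 and 0% of 24 reads, which allows up to 9.38% and 12.5%. The innermost one was read within 500 bp in every library, at 18.03% and 35.7% in the controls and 28.8% and 22.3% in FGR, over 61 to 112 reads, and the groups overlapped. Just downstream of this low region, the tile chr9:96718001-96719000 had 85.8% and 71.2% in the controls and 47.5% and 44% in FGR, over 101 to 150 reads. Both FGR libraries were below both controls, and the difference was -32.8 points between group means of 78.5% ± 10.3 and 45.8% ± 2.49 (SD, n = 2). This tile did not pass (adjusted p = 0.399). At its 10 CpGs listed in both groups the pooled level was 74.7% for control and 59.5% for FGR, which is -15.1 points from control to FGR.

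Pairs of libraries compared at the CpGs that both list gave a further view of these spans. Each member has 4 pairs between the groups, which share libraries, and 2 pairs within a group. In Zbtb4 all 4 pairs were higher in FGR, by 2.18 to 11.3 points, and its pairs within a group differed by 1.81 and -1.20 points. In Mbd2, the 4 pairs ran from -2.89 to 0.06 points, beside 1.95 and -0.27 within groups. In Mbd1 and Mbd3, the pairs within groups differed by up to 5.46 and 8.06 points, more than any pair between groups. In Mbd5 and Zbtb38 no pair between groups differed by more than 1.52 and 1.84 points, which are the closest bounds among the 8. Their pairs within a group differed by less, at most 0.60 and 0.58 points. In Mbd4 the pairs with control 1 were higher in FGR, by 3.25 and 4.92 points, and those with control 2 gave -3.30 and -4.99 points. Pairs within a group gave -0.76 and -1.46 points in Mbd4, smaller in size than any of its pairs between groups. Mbd6 ran from -5.88 to 2.66 points over 13 to 28 shared CpGs, beside 4.89 and -1.24 within groups.

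**Figure D5:**
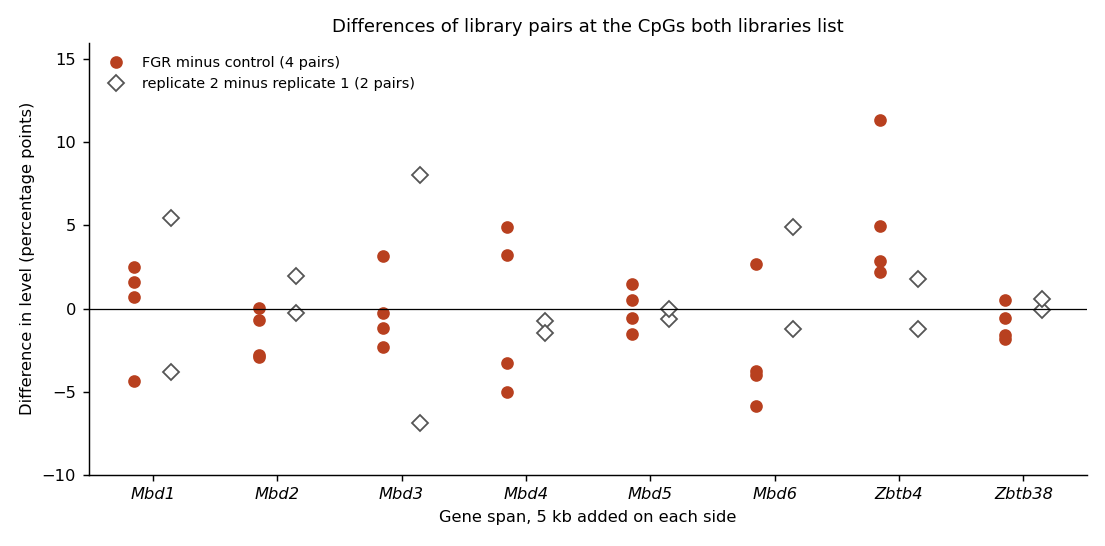
Difference in methylation level (percentage points, vertical axis) between 2 libraries at the CpGs that both list, for each member (horizontal axis); filled circles are the 4 pairs of 1 FGR and 1 control library, open diamonds replicate 2 minus replicate 1 within control and within FGR. The 4 circles of Zbtb4 lie above 0, between 2.18 and 11.3, and in the other members the circles lie on both sides of 0.

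No start region and no tile of the members was called. Of the members, 11 start or end regions of 2 kb in 7 genes could be tested, with adjusted p between 0.855 and 1, and 0 of 32458 such regions (0%) were called over all genes, with 1921 at an unadjusted p under 0.05. With the overdispersion raised to 1 before moderation, 265 of these regions (0.816%) were called, 99 higher and 166 lower, and none of the 11 of the members. Of the 616 tiles of 1 kb in the spans, 175 could be tested, 91 were lower in FGR, 83 higher and 1 equal. Lower tiles made up 51.8% of all tested tiles. A call was made for 0 of the 175 and for 1 of 550538 over all autosomes (0.000182%). Under the same alternative, 1 of the 175 was called, the Mbd2 tile described above, and 0.0614% of all tiles. An unadjusted p under 0.05 was found for 7 of the 175, and for 5.01% of all tiles. In Zbtb4 8 of 9 tested tiles were higher in FGR, and in Mbd2 24 of 35 were lower. In Mbd5 40 of 76 and in Zbtb38 18 of 33 were lower, also in the direction of the span. In Mbd6, Mbd4 and Mbd1 most tiles went against the span: 3 of 3 and 6 of 8 were higher, and 5 of 9 lower. Mbd3 had 1 of 2 lower.

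The partners of these readers gave no called gene either. Among the 12 tested NuRD partners, such as the ATPase gene Chd4 and the deacetylase genes Hdac1 and Hdac2, 3 had a higher span level in FGR and 9 a lower one, with a median difference of -3.20 points. The widest were Cdk2ap1, at 9.98 points, and Chd4, at -12.2 points, with 78.8% and 80.4% in the controls and 60.7% and 74.1% in FGR (adjusted p = 0.786). Of 7 PR-DUB partners, 3 were higher and 4 lower (median -0.09 points). Of 9 repair genes that work with or beside MBD4, 4 were higher and 5 lower (median -1.46 points), and the uracil glycosylase gene Smug1 had 61.7% and 64.0% in the controls and 48.7% and 50.1% in FGR (adjusted p = 0.745). Of 8 corepressor genes, 2 were higher and 6 lower (median -3.35 points). Among 6 other reader genes, 2 were higher and 4 lower (median -2.05 points), with Baz2a at 11.5 points and Uhrf1 at -4.39 points. Over all genes 12047 were higher and 20566 lower. At CpGs that every library listed, the medians of the same lists were 0.40, 0.40, -0.91, 0.11 and 0.21 points, in the order given here, beside -0.30 over all genes.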

How the data were processed

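Whole-genome bisulfite libraries of hippocampal microglia, 2 control and 2 FGR, were grouped by the titles in the labels. Trim Galore 0.6.5, Bismark and methylKit 1.28.0 were used with the build mm10, per the submitters' processing notes; no settings and no Bismark version were found in the labels or headers. The deposited coverage is a count of reads per cytosine and strand, and the deposited methylation values are the percent of reads with C or T, per the file headers. The product of coverage and percent gave whole reads, within 0.02 reads, for 100% of listed cytosines. Cytosines below 5 reads are missing, so which CpGs are listed depends on the reads at each site, and duplicate reads cannot be recognised.

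Both strands were summed per CpG, and the 0.1% of CpGs with the highest coverage in each library were left out. All 155525 listed CpGs inside RefSeq start sequences fell on a CG. A level is methylated over all reads of a region, so a read over several CpGs counts more than once. Differences are FGR minus control of the group means. Regions where each library had 3 or more CpGs and 10 or more reads were tested with a quasi-binomial model, group as the only term, in R 4.3.3. Its overdispersion was moderated over all regions of a kind (squeezeVar of limma 3.58.1, trend on coverage) and then kept at 1 or above. The p-values were adjusted by Benjamini-Hochberg over all regions of that kind. edgeR 4.0.16, limma on log2 ratios with 0.5 added, and other filters, flanks and CpG sets were alternatives. The test was tested on simulated data. RefSeq (GRCm38.p6) gave gene ends and starts but no exons, and only autosomes were tested. In each member, the tested tile with the largest difference and at least 5 CpGs in every library, and the tile with the largest difference over at least 3 CpGs listed in both groups, could be named; of each partner list, at most the gene with the largest difference in each direction. Flanks, low windows and start stretches singled out beside these were chosen after their values were seen. The members and lists were chosen with earlier results of these data known, and the Mbd2 tile is therefore a description.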

Additional observations from a re-analysis of the deposited data

How the results depend on the processing

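Of 210 alternatives for single members, 189 kept the direction and 21 reversed it, 11 of them at the few CpGs listed in all 4 libraries. None of those tested with all 4 libraries gave a call. Some outcomes were fixed in advance. Equal weight for every CpG was not tested, and a replicate block leaves the difference, and so its direction, unchanged. Dropping the upper coverage filter also left each of these differences at its value. Of 88 alternatives for counts, 81 stayed within 1.5 times, which includes replicate blocks that could not change the number of lower members. Most of the 81 are numbers of called members or tiles that were 0 and stayed 0. Nearly all of those fits called few or no regions anywhere, so this says little about stability. Raising the overdispersion to 1 before moderation, an alternative chosen after seeing the data, called 1 of 175 member tiles, the one in Mbd2 (0.0614% of all tiles), and 0 members by span or start, beside 301 spans and 265 starts over all genes in place of 0. With at least 10 reads per CpG, 3 of 4 measurable members were lower at CpGs listed in both groups and 0 of 1 at those listed in all 4. At CpGs listed in all remaining libraries, 5 of 7 measurable members were lower without control 1 and 4 of 8 without control 2. Without FGR 1 it was 4 of 8, and without FGR 2 it was 3 of 7, beside 2 of 6 with all 4 libraries. Windows under 10% in place of 20% numbered 22.

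Reversed span differences were 17.6 points in Mbd3 without flanks, -1.68 in Zbtb4 with at least 10 reads per CpG, 10.9 in Mbd4 at CpGs of both groups with that minimum, and, at CpGs of all 4 libraries, -0.21 in Mbd5 with equal weight per CpG and -0.76 and -0.49 in Zbtb38 with no flank and with 10 kb flanks. Leaving out 1 replicate gave ranges that cross 0: over all CpGs, -0.66 to 8.12 points in Mbd1 and -22.7 to 20.02 in Mbd3; at CpGs of both groups, -1.17 to 4.29 in Mbd1, -3.14 to 7.85 in Mbd3, -8.23 to 6.15 in Mbd4 and -1.28 to 0.16 in Mbd5; at CpGs of all libraries, -1.91 to 3.63 in Mbd1, -2.52 to 0.40 in Mbd2, -3.68 to 5.69 in Mbd4, -0.24 to 0.88 in Mbd5 and -1.66 to 2.37 in Zbtb38. The cause was not tested. At CpGs listed in all 4 libraries, the differences between replicates were not correlated between the groups (r = 0.00812 across 30000 spans, which are not independent). Counting error weakens such a correlation, so it cannot show whether replicate numbers pair the libraries. The fit with a replicate block called 0 members and 0 tiles.

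At 5 to 10 reads per CpG, small differences at single CpGs were not detectable. Within 500 bp, the starts of Mbd6 and Zbtb4 were largely unread, and the middle one of Zbtb38 was read only in FGR. The first start of Mbd5 was read there only in control 1 and FGR 1, over 78 and 81 reads.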
